A study of Mus musculus with 24 samples.

Results

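The Slc25 genes encode the mitochondrial carriers, a family of membrane proteins that move metabolites, nucleotides, cofactors and ions between the cytosol and the mitochondrial matrix. All genes whose annotated symbol starts with Slc25a were taken, except Slc25a1, Slc25a17 and Slc25a20, which gave 41 genes of the 18194 genes on the array. Each gene was represented by the probe set with the highest mean signal over all arrays, and 21 of the 41 had more than 1 probe set, 88 probe sets in all.

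Most carriers are built from repeated pairs of membrane-spanning helices and work as exchangers in the inner mitochondrial membrane, opening in turn to either side. In liver they feed ATP synthesis, the malate-aspartate shuttle, the urea cycle, gluconeogenesis and the oxidation of fatty acids. Slc25a46 is an exception, since it sits in the outer mitochondrial membrane.

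Total liver RNA of male B6C3F1 mice, aged 7 to 10 weeks on arrival at the laboratory, was hybridised to 24 Affymetrix arrays. DEHP (diethylhexylphthalate), which is used to soften plastics and is a peroxisome proliferator, was given to the treated mice by oral gavage at 1150 mg/kg/day in a volume of 10 ml/kg, every 24 h for 3 days. The control mice received corn oil alone, the vehicle. Livers of both kinds were taken at 2, 8, 24 and 72 h, with 3 arrays in each of the 8 groups. The labels do not state from which dose the times were counted. The labels name no mutation or transgene in any group, and the 2 arms share strain, sex and route. The design text names 6 mice, fewer than the 8 groups. The array titles carry RC numbers that differ within each group, but the labels do not say what is numbered. Nothing in the labels states that the 3 arrays of a group are separate animals. The p-values therefore measure the spread between these arrays, which may be technical.

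Values are log2 signals, so that a difference of 1 is a 2-fold change, and each difference is DEHP minus corn oil with its standard error (SE). A member is described as called where limma's moderated test gave an adjusted p under 0.05, after Benjamini-Hochberg adjustment over all 18194 genes. Array medians lay between 6.46 and 6.55, and arrays of a group correlated with r between 0.989 and 0.996. Of the 41 members, 31 lay above the 40th percentile of mean signal, against 60% of all genes. All 10 hepatocyte markers measured lay at or above percentile 97.75 of all genes. In whole liver, fewer cells of a type and less RNA per cell cannot be told apart. Corn oil 8 h replicate 2 had a difference of 1.46 between the 3' and 5' Actb control probe sets, a sign of RNA quality, against at most 0.82 on the other arrays. It also had the lowest summed macrophage marker signal of the 24 arrays, 3695, next to 7034 and 6257 on the other corn oil 8 h arrays. The calls at 8 h are therefore also given without it.

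At 2 h, 3 of the 41 members were called higher in DEHP livers (Slc25a34, Slc25a42 and Slc25a47) and none lower, where 0.83% of all genes were called in either direction, 0.616% higher and 0.214% lower. At 8 h, 4 members were called higher (Slc25a32, Slc25a34, Slc25a42 and Slc25a51) and Slc25a28 lower, where 4.13% of all genes were called, 1.28% higher and 2.86% lower. At 24 h no member was called, with 4 members at an unadjusted p under 0.05 in the same limma fit, where 0.297% of all genes were called and 8.13% had such a p. At 72 h only Slc25a12 was called, lower in DEHP livers, where 4.18% of all genes were called and 3.05% were lower. The members called were 7.32% of the 41 at 2 h, 12.2% at 8 h, 0% at 24 h and 2.44% at 72 h. The count at 2 h was 1 without corn oil 2 h replicate 3, and that at 8 h was 1 without corn oil 8 h replicate 1 or 2 or DEHP 8 h replicate 3.

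The members differed in both directions. The median difference of the 41 members was -0.02 at 2 h, 0.02 at 8 h, -0.04 at 24 h and -0.09 at 72 h, and that of all genes lay between -0.03 and 0. Differences of at most 0.2 in either direction were found for 27 members at 2 h, 25 at 8 h, 30 at 24 h and 25 at 72 h. The 3 DEHP arrays did not overlap the 3 corn oil arrays for 12 members at 2 h, 12 at 8 h, 10 at 24 h and 14 at 72 h. These were 29.3% of the members at 2 h, where 11.4% of all genes did not overlap, 29.3% at 8 h against 18.6%, 24.4% at 24 h against 13.8%, and 34.1% at 72 h against 28.2%. Without corn oil 8 h replicate 2, the median of the members at 8 h was 0.01 and that of all genes -0.04, and 17 members did not overlap, where 27.4% of all genes did not. Leaving out an array can only keep or raise such counts, so the rise from 12 does not show a clearer separation.

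**Figure D1:**
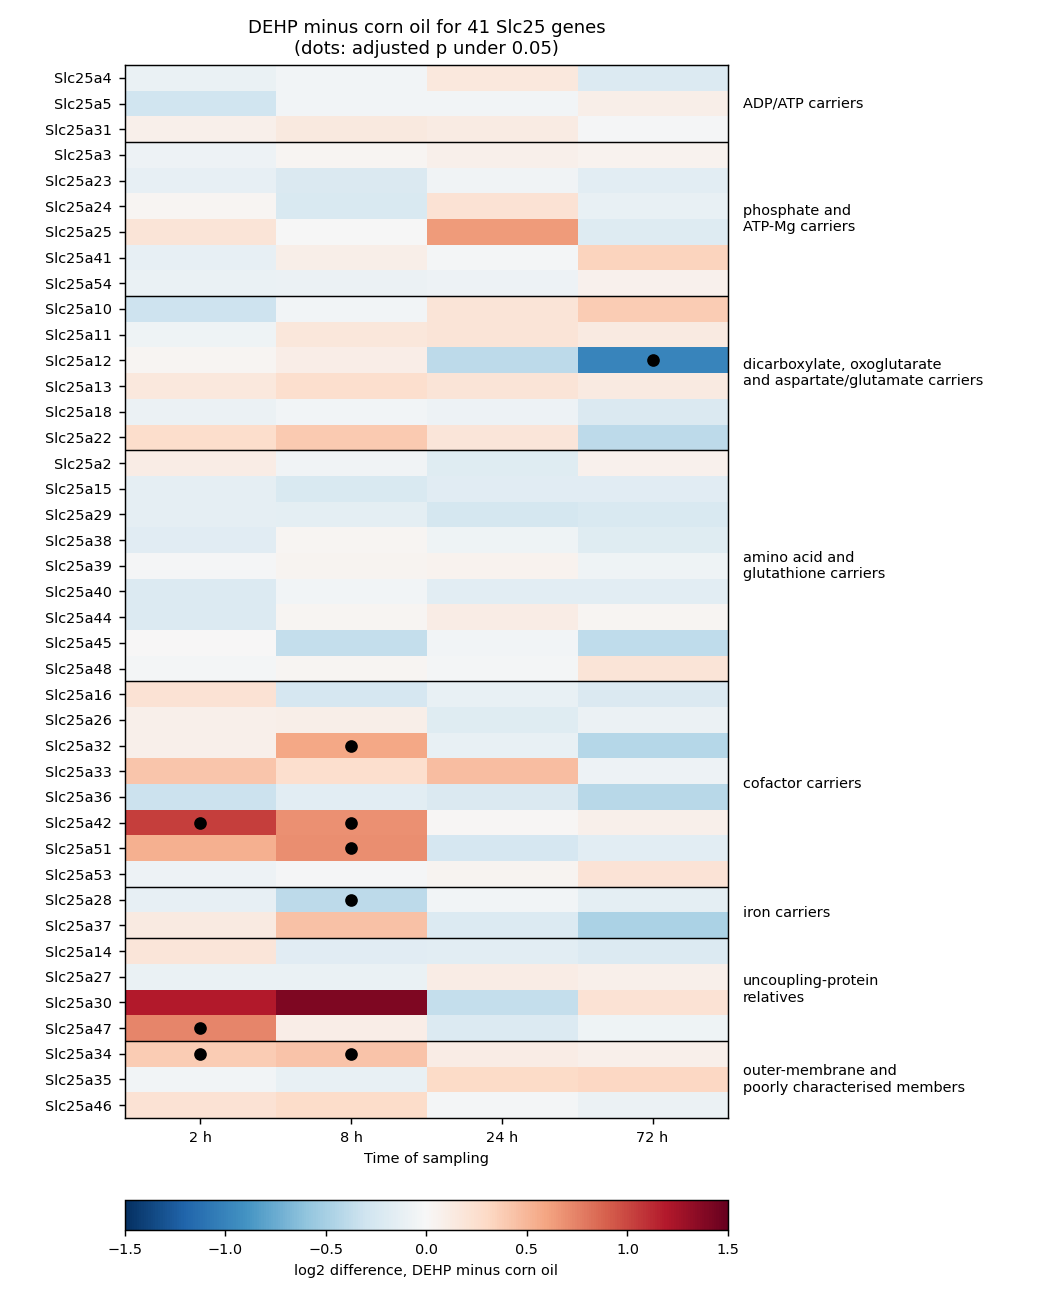
Difference between DEHP and corn oil livers for each of the 41 Slc25 genes (down the page, by role of the carrier) at each time of sampling (across), as a log2 difference of the means of 3 arrays each, with colour from blue (lower in DEHP livers) to red (higher) and a dot where the adjusted p was under 0.05. The dots lie at 2 h (3), 8 h (5) and 72 h (1), and the darkest red cells without a dot are those of Slc25a30.

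The 250 bases before the RefSeq start of the 3 members called at 2 h, the shortest time in the labels, are shown. The dose from which this time was counted is not stated, so these need not be first responses. Peroxisome proliferators act through a nuclear receptor whose element is built from AGGTCA hexamers. The sequences are from RefSeq, build GRCm38.p6, 5' to 3' on the strand of the gene, and run up to the base before the start. Slc25a34 is on the minus strand at chr4:141623835-141624084, Slc25a42 on the minus strand at chr8:70212282-70212531 and Slc25a47 on the plus strand at chr12:108850879-108851128. Capitals mark a hexamer, searched as AGGTCA on both strands.
Slc25a34: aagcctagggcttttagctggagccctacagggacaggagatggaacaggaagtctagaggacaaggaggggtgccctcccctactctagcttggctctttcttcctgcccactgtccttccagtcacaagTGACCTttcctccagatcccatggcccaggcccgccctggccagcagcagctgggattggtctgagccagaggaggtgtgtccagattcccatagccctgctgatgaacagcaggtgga
Slc25a42: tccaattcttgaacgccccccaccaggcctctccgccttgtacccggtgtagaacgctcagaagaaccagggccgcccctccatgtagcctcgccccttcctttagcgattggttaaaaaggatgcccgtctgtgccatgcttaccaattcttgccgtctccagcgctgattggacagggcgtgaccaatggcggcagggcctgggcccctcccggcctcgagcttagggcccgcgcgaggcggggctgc
Slc25a47: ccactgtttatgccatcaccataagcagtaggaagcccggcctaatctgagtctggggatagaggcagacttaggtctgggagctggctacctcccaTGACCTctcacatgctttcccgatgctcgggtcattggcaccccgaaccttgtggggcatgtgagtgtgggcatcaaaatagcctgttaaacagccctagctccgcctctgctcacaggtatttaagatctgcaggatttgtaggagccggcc
The hexamer read TGACCT at 119 bases before the start of Slc25a34 and at 153 bases before that of Slc25a47, and its letters are not in the window of Slc25a42. It was found in 14.02% of 32851 RefSeq promoters of the same length and in 4 of the 40 promoters that matched 31 members, those of Slc25a34, Slc25a39, Slc25a45 and Slc25a47. A pair of hexamers spaced by 1 base, AGGTCANAGGTCA, was in 0.0335% of all promoters and in 0 of the 40, and a looser form, AGGNCANAGGNCA, in 0.338% and in 0 of the 40. These matches are descriptions of letters and not of binding.

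By count, the cofactor carriers held more of the called members than any other role group. The role groups hold 2 to 9 members and were set with earlier results of these data known, so this ranking only describes the lists. The pyrimidine nucleotide carriers Slc25a33 and Slc25a36 were counted among the cofactor carriers. A place in a role group does not mean that a member's substrate is established. Of 8 measured, Slc25a42 was called higher at 2 h and Slc25a32, Slc25a42 and Slc25a51 at 8 h, and on the average over the 4 times Slc25a33 and Slc25a42 were called higher and Slc25a36 lower. On that average, 7 of the 41 members were called, 3 higher and 4 lower, where 6.41% of all genes were called, 1.98% higher and 4.42% lower. Slc25a16, Slc25a26 and Slc25a53, the other members of the group, were called in none of these tests.

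Slc25a42, on chromosome 8, carries coenzyme A into the matrix in exchange for adenine nucleotides. At 2 h its signals were 10.92, 10.45 and 11.13 in DEHP livers, against 9.87, 10.03 and 9.50 in corn oil livers. At 8 h they were 11.11, 11.05 and 11.06 with DEHP and 10.23, 10.37 and 10.56 with corn oil. At both times every DEHP array lay above every corn oil array. At 24 h the signals were 9.92, 9.80 and 10.12 with DEHP and 10.14, 9.90 and 9.73 with corn oil, and at 72 h they were 10.28, 9.76 and 9.92 with DEHP and 9.78, 9.88 and 10.06 with corn oil. At these later times the groups overlapped. The difference was 1.04 (SE 0.16) at 2 h, a 2.05-fold higher signal (adjusted p = 0.000993), and 0.68 (SE 0.16) at 8 h (adjusted p = 0.0151), against 0.02 at 24 h and 0.08 at 72 h. The effect differed between the times by the moderated F test of that difference (adjusted p = 0.0288). The call at 2 h held in all 24 fits that left out 1 array and in the 12 other settings. Differences in these refits lay between 0.55 and 1.23, the lowest with the mean of both probe sets. For any call at a single time, leaving out an array of another time cannot change the difference, only its variance estimate and adjusted p. The call at 8 h was lost without corn oil 8 h replicate 1 or 2 or DEHP 8 h replicate 1 or 3 (adjusted p between 0.0555 and 0.0687). The second probe set of Slc25a42, with a mean signal of 6.18, showed a difference of 0.07 at 2 h and 0.11 at 8 h.

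Slc25a51, on chromosome 4, carries NAD+ into mitochondria. At 2 h its signals were 10.52, 10.11 and 10.38 with DEHP and 9.79, 9.86 and 9.78 with corn oil. At 8 h they were 10.32, 10.73 and 10.23 with DEHP, against 9.78, 9.52 and 9.88 with corn oil. The groups did not overlap at either time. At 24 h DEHP arrays gave 9.56, 9.48 and 9.25 and corn oil arrays 9.81, 9.06 and 10.16. At 72 h DEHP arrays gave 9.70, 9.40 and 9.69 and corn oil arrays 9.88, 9.77 and 9.62. The groups overlapped at both of these times, and the corn oil arrays at 24 h spread over more than 1 log2 unit. The difference was 0.53 (SE 0.19) at 2 h (adjusted p = 0.329) and 0.70 (SE 0.19) at 8 h (adjusted p = 0.035), and only that at 8 h was called. Its other 2 probe sets had differences of 0.71 and 0.55 at 2 h and of 0.62 and 0.37 at 8 h. The call was lost without corn oil 8 h replicate 1 or 2 or without any 1 of the 3 DEHP 8 h arrays (adjusted p between 0.051 and 0.175). It was also lost with the mean of the 3 probe sets (0.56, adjusted p = 0.0823), with the Actb difference as a covariate (adjusted p = 0.187) and without both arrays numbered 14 in their titles, DEHP 8 h replicate 2 and corn oil 8 h replicate 3 (adjusted p = 0.146).

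Slc25a32, on chromosome 15, is known as a carrier of folate and FAD. Its signals at 2 h were 7.30, 7.53 and 7.29 with DEHP and 7.31, 7.26 and 7.32 with corn oil, and at 8 h they were 7.61, 7.83 and 7.66 with DEHP and 7.03, 6.80 and 7.53 with corn oil. At 24 h they were 6.85, 7.06 and 6.78 with DEHP and 6.88, 6.83 and 7.33 with corn oil, and at 72 h 7.19, 7.05 and 6.91 with DEHP and 7.52, 7.46 and 7.46 with corn oil. The DEHP arrays all lay above the corn oil arrays at 8 h and all below them at 72 h. The difference was 0.58 (SE 0.14) at 8 h (adjusted p = 0.0199) and -0.43 (SE 0.14) at 72 h, which was not called (adjusted p = 0.0874). The effect differed between the times (moderated F test, adjusted p = 0.0345). The other 2 probe sets had mean signals of 5.46 and 5.37. Their differences were 0.39 and 0.72 at 8 h and -0.13 and 0.15 at 72 h. At 2 h they were 0.17 and 0.54, next to 0.08 for the one used. On average over the times they were 0.07 and 0.37, next to 0.03 for the one used. The probe set with a mean signal of 5.37 was thus higher in DEHP livers at 2 h as well as at 8 h. The call at 8 h was lost without corn oil 8 h replicate 1 or 2 or DEHP 8 h replicate 2 or 3 (adjusted p between 0.0588 and 0.157). Of 24 refits with 1 array left out, 12 kept the call of a difference between times. It was lost without any 1 of the DEHP arrays at 8 h, replicates 2 and 3 of DEHP at 72 h, replicates 1 and 3 of corn oil at 2 h, replicates 1 and 2 of corn oil at 8 h or the corn oil arrays at 72 h, with an adjusted p of at most 0.0896.

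Slc25a33 and Slc25a36 both carry pyrimidine nucleotides, and on the average over the 4 times Slc25a33 was higher and Slc25a36 lower in DEHP livers. Slc25a33, on chromosome 4, had 9.52, 9.52 and 9.56 with DEHP and 9.09, 9.28 and 8.97 with corn oil at 2 h, and 9.24, 9.36 and 9.60 with DEHP and 8.86, 9.09 and 8.84 with corn oil at 24 h. The groups did not overlap at these times. It had 9.18, 9.61 and 9.47 with DEHP and 9.03, 9.32 and 9.15 with corn oil at 8 h, and 9.24, 9.05 and 9.002 with DEHP and 9.09, 8.91 and 9.53 with corn oil at 72 h, with overlap at both. Its average difference was 0.26 (SE 0.07, adjusted p = 0.0235), which was lost only without DEHP 24 h replicate 3 among the fits without 1 array (adjusted p = 0.0516), and also with array weights (adjusted p = 0.0755) and without both arrays numbered 14 (adjusted p = 0.0624). It was called at no single time.

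Slc25a36, on chromosome 9, was a dim gene at percentile 20.4 of all genes. Its signals were 5.43, 5.86 and 5.30 with DEHP and 5.74, 5.83 and 5.99 with corn oil at 2 h, and 5.83, 5.82 and 5.66 with DEHP and 5.88, 5.86 and 6.06 with corn oil at 8 h. At 24 h they were 5.52, 5.90 and 5.39 with DEHP and 5.80, 5.59 and 6.05 with corn oil, and at 72 h 5.80, 5.52 and 5.84 with DEHP and 5.96, 5.93 and 6.50 with corn oil. The DEHP arrays lay below the corn oil arrays without overlap at 8 and 72 h. The average difference was -0.28 (SE 0.08, adjusted p = 0.0417). Of 24 refits with 1 array left out, 11 kept this call, and its other 2 probe sets had average differences of 0.05 and 0.08. It was lost without replicate 1 or 3 of DEHP at 2, 8 or 24 h, replicate 2 of DEHP at 72 h, replicate 2 of corn oil at 2 h, replicate 1 of corn oil at 24 h, or replicate 3 of corn oil at any time (adjusted p between 0.0544 and 0.086). It was lost too with the mean of the 3 probe sets (-0.05, adjusted p = 0.508), quantile normalization (adjusted p = 0.0553), median centring (adjusted p = 0.0671), the Actb covariate (adjusted p = 0.0611) and without both arrays numbered 14 (adjusted p = 0.0822).

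Among the relatives of the uncoupling proteins, Slc25a47 was called higher at 2 h and the other 3 members, Slc25a14, Slc25a27 and Slc25a30, were not called at any time. Slc25a47, on chromosome 12, is a carrier expressed mainly in liver. Its signals at 2 h were 12.43, 12.90 and 12.45 with DEHP, all above the 11.98, 11.93 and 11.69 with corn oil. At 8 h they were 12.62, 12.62 and 12.40 with DEHP and 12.34, 12.38 and 12.62 with corn oil. At 24 h they were 11.37, 11.47 and 11.85 with DEHP and 11.84, 11.71 and 11.77 with corn oil. At 8 and 24 h the groups overlapped, as they did at 72 h, with 11.74, 11.86 and 11.62 for DEHP and 11.60, 11.94 and 11.89 for corn oil. The difference was 0.73 (SE 0.14) at 2 h (adjusted p = 0.00676) and 0.10 (SE 0.14) at 8 h, and the effect differed between the times (moderated F test, adjusted p = 0.0283). The call at 2 h was lost without corn oil 2 h replicate 3 (adjusted p = 0.0682), and that of a difference between times without any of 5 arrays (replicate 2 of DEHP at 2 or 24 h, replicate 3 of DEHP at 72 h, replicate 3 of corn oil at 2 h and replicate 1 of corn oil at 24 h, adjusted p at most 0.0902).

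The corn oil livers also changed with time. In them Slc25a47 was higher at 8 h than at 2 h by 0.58 (SE 0.14, adjusted p = 0.0157) and at 24 h fell by 0.68 (SE 0.14) relative to 8 h (adjusted p = 0.00651). The DEHP arrays at 2 h, between 12.43 and 12.90, overlapped the corn oil arrays at 8 h, between 12.34 and 12.62. Slc25a42 was also called higher at 8 h than at 2 h in corn oil livers, by 0.59 (SE 0.16, adjusted p = 0.0406). These were the 2 members called between 8 and 2 h in corn oil, where 4.06% of all genes were called and 2.96% were higher, and Slc25a47 was the only member called between 24 and 8 h, where 2.57% were called and 1.79% were lower. Over all times the corn oil livers differed for 2 members, Slc25a34 (adjusted p = 0.0269) and Slc25a47 (adjusted p = 0.00965), where 3.55% of all genes were called. The rise of Slc25a42 in corn oil was lost without replicate 1 of DEHP at 24 h, replicate 3 of DEHP at 72 h, replicate 1 or 3 of corn oil at 2 h or replicate 2 or 3 of corn oil at 8 h (adjusted p at most 0.19). It was also lost in 6 of 11 other settings, namely the mean of both probe sets, quantile normalization, median centring, the Actb covariate, without both arrays numbered 14 and without the 2 arrays that stood apart, replicate 2 of corn oil at 8 h and replicate 1 of corn oil at 72 h (adjusted p at most 0.197). That of Slc25a47 was lost without corn oil 2 h replicate 3 or corn oil 8 h replicate 3 (adjusted p at most 0.0804), with the Actb covariate and without both arrays numbered 14 (adjusted p at most 0.0792). The corn oil F test lost Slc25a47 without corn oil 8 h replicate 3, and Slc25a34 without replicate 1 or 2 at 2 h, replicate 2 at 8 h, replicate 1 at 24 h or replicate 2 at 72 h (adjusted p at most 0.107). That test also lost Slc25a47 with the Actb covariate and without both arrays numbered 14 (adjusted p at most 0.0848), and Slc25a34 with array weights, the Actb covariate and without the 2 arrays that stood apart (adjusted p at most 0.0804).

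Slc25a34, on chromosome 4, is a carrier whose substrate is poorly characterised. Its signals at 2 h were 8.29, 8.20 and 8.28 with DEHP and 7.95, 7.90 and 7.79 with corn oil, and at 8 h they were 8.25, 8.13 and 8.16 with DEHP and 7.65, 7.84 and 7.77 with corn oil. The groups did not overlap at either time, and the arrays of a group lay within 0.2 of each other. At 24 h the signals were 7.58, 7.67 and 7.69 with DEHP and 7.53, 7.65 and 7.44 with corn oil, and at 72 h 7.51, 7.58 and 7.71 with DEHP and 7.41, 7.51 and 7.65 with corn oil. The groups overlapped at both of these times. The difference was 0.38 (SE 0.08) at 2 h (adjusted p = 0.0306) and 0.43 (SE 0.08) at 8 h (adjusted p = 0.00382), against 0.11 at 24 h and 0.08 at 72 h. The test of a difference between the times did not pass (adjusted p = 0.174), and the average difference was 0.25 (SE 0.04, adjusted p = 0.000698). The calls at 8 h and on average held in all 24 fits without 1 array. The call at 2 h was lost without any 1 of the corn oil 2 h arrays or without DEHP 2 h replicate 1 or 3 (adjusted p between 0.0593 and 0.173). Slc25a35, another poorly characterised carrier, and Slc25a46 were called at no time, with differences between -0.11 and 0.31.

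**Figure D2:**
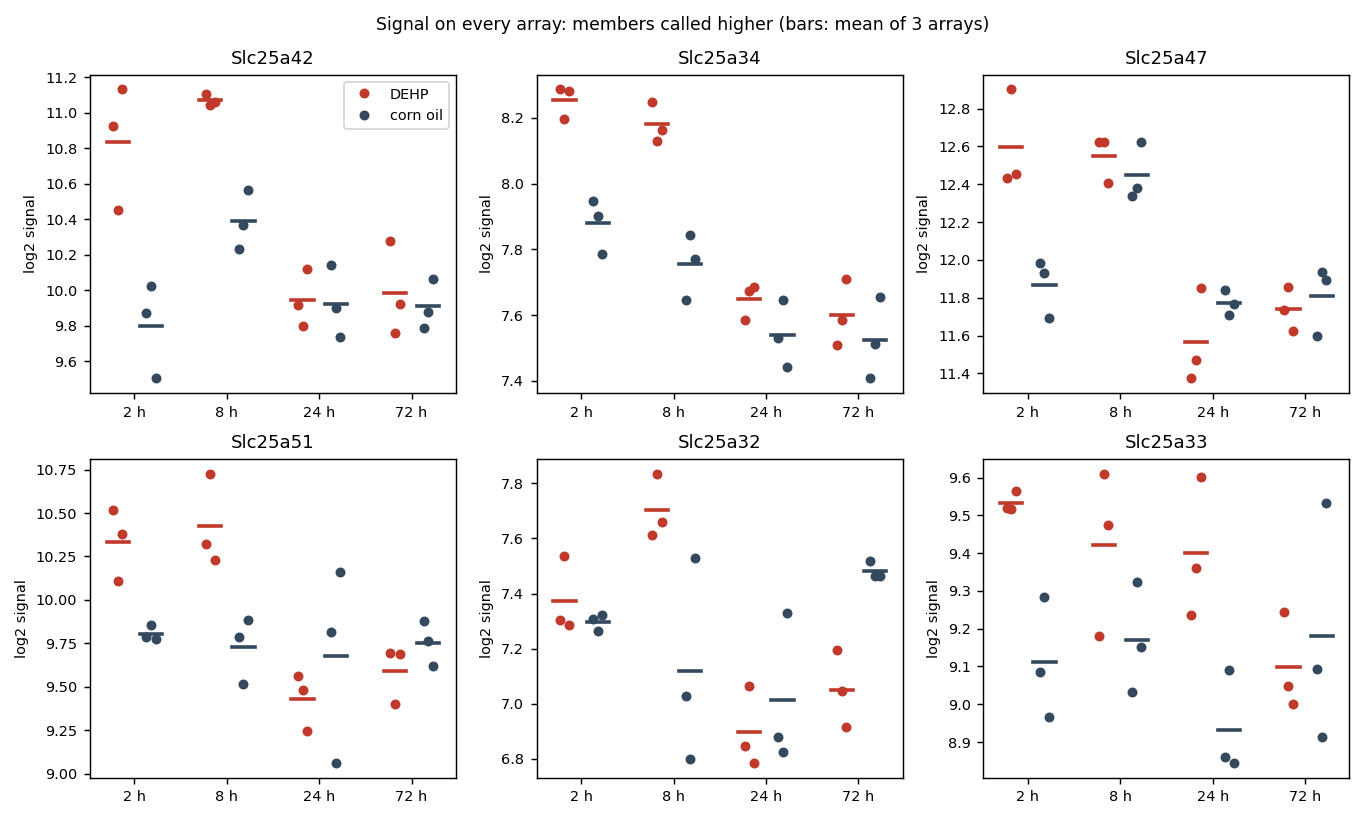
Log2 signal on every array for the 6 members called higher at a single time or on average, DEHP (red) left of corn oil (dark blue) at each time of sampling, with a bar at the mean of 3 arrays. For Slc25a42, Slc25a34 and Slc25a51 the red points lie above the blue ones at 2 and 8 h and the points overlap at 24 and 72 h.

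The largest called fall was that of Slc25a12 at 72 h. Slc25a12, on chromosome 2, encodes aralar, the aspartate/glutamate carrier of muscle and brain, while Slc25a13 encodes citrin, the main form in hepatocytes. At 72 h the signals of Slc25a12 were 6.51, 6.70 and 6.86 in DEHP livers, against 7.67, 7.74 and 7.63 in corn oil livers. At 24 h they were 7.02, 7.07 and 6.78 with DEHP and 7.16, 7.15 and 7.72 with corn oil. The groups did not overlap at either time. At 2 h they were 7.56, 7.15 and 7.25 with DEHP and 7.10, 7.36 and 7.43 with corn oil, and at 8 h 7.59, 7.97 and 7.55 with DEHP and 7.71, 7.43 and 7.67 with corn oil, with overlap at both. The difference was -0.99 (SE 0.15) at 72 h, a signal 0.502 times that of corn oil (adjusted p = 0.000571), and -0.39 (SE 0.15) at 24 h, which was not called (adjusted p = 0.499). The effect differed between the times (moderated F test, adjusted p = 0.0133), and the average difference was -0.31 (SE 0.075, adjusted p = 0.013). All 3 calls held in each of the 24 fits without 1 array.

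The fall of Slc25a12 was seen with 1 of its 3 probe sets. The other 2, with mean signals of 7.17 and 6.90 next to 7.32 for the one used, had differences of -0.01 and 0.01 at 72 h and of -0.06 and -0.11 at 24 h. With the mean of the 3 probe sets the difference at 72 h was -0.33 and still called (adjusted p = 0.0221), while the average difference (-0.11, adjusted p = 0.103) and the difference between times (adjusted p = 0.142) were not. At 72 h, 4 of 9 macrophage markers measured were also called lower (Adgre1, Cd163, Cd5l and Cd68), with a median difference of -0.60 over the 9, and their summed signal was 3851 to 4618 on DEHP arrays against 5517 to 7812 on corn oil arrays. The summed signal of the 7 skeletal muscle markers at 72 h was 531.8 to 1928 on DEHP arrays and 631.6 to 3171 on corn oil arrays, so that these groups overlapped. None of 8 endothelial markers was called at 72 h, their median difference was -0.40, and their sum was 2921 to 3588 on DEHP arrays against 3878 to 4510 on corn oil arrays. Of the 10 hepatocyte markers only Hnf4a was called, lower in DEHP livers with a difference of -0.46 (SE 0.11, adjusted p = 0.0221), and their sum was 130100 to 135100 with DEHP and 137900 to 141500 with corn oil. The sums of these 2 lists and of the macrophage markers did not overlap between the groups. Neither did that of 4 red blood cell markers, 1701 to 2034 with DEHP against 2101 to 2487 with corn oil. The sum of 5 adipocyte markers was apart in the other direction, 731.9 to 1137 with DEHP against 542.8 to 723.5 with corn oil. The sums of the other marker lists overlapped, and 28.2% of all genes did not overlap at 72 h. The part of these cell types in the result was not tested.

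**Figure D3:**
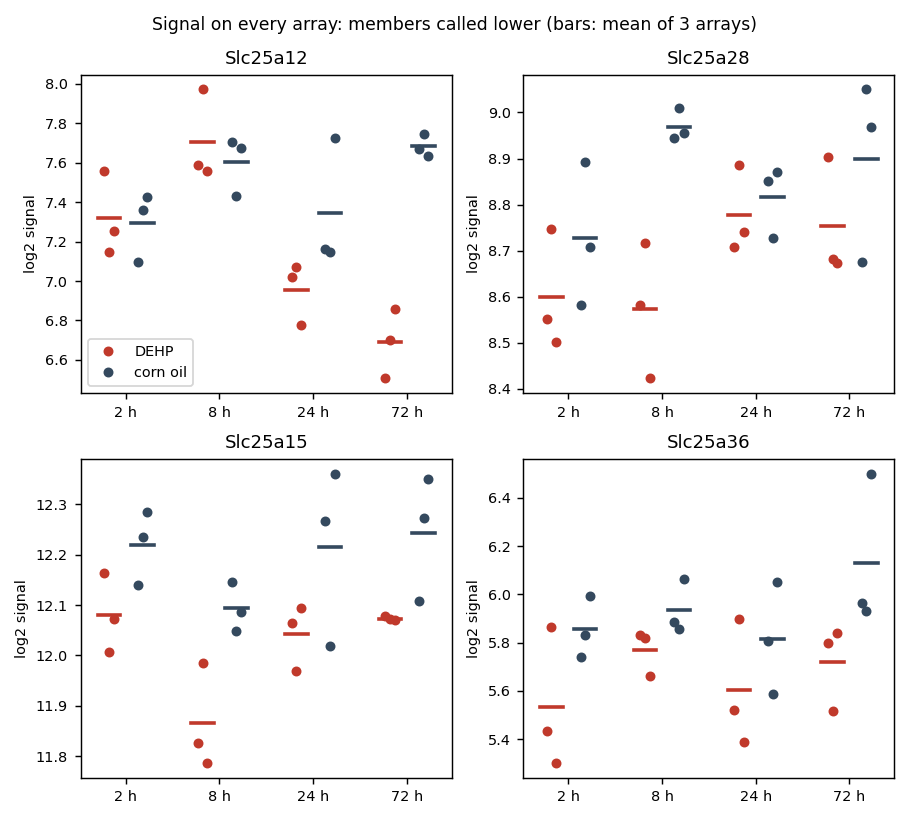
Log2 signal on every array for the 4 members called lower at a single time or on average, DEHP (red) left of corn oil (dark blue) at each time of sampling, with a bar at the mean of 3 arrays. Slc25a12 separates at 24 and 72 h, with red points between 6.51 and 6.86 at 72 h and blue points between 7.63 and 7.74.

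**Figure D4:**
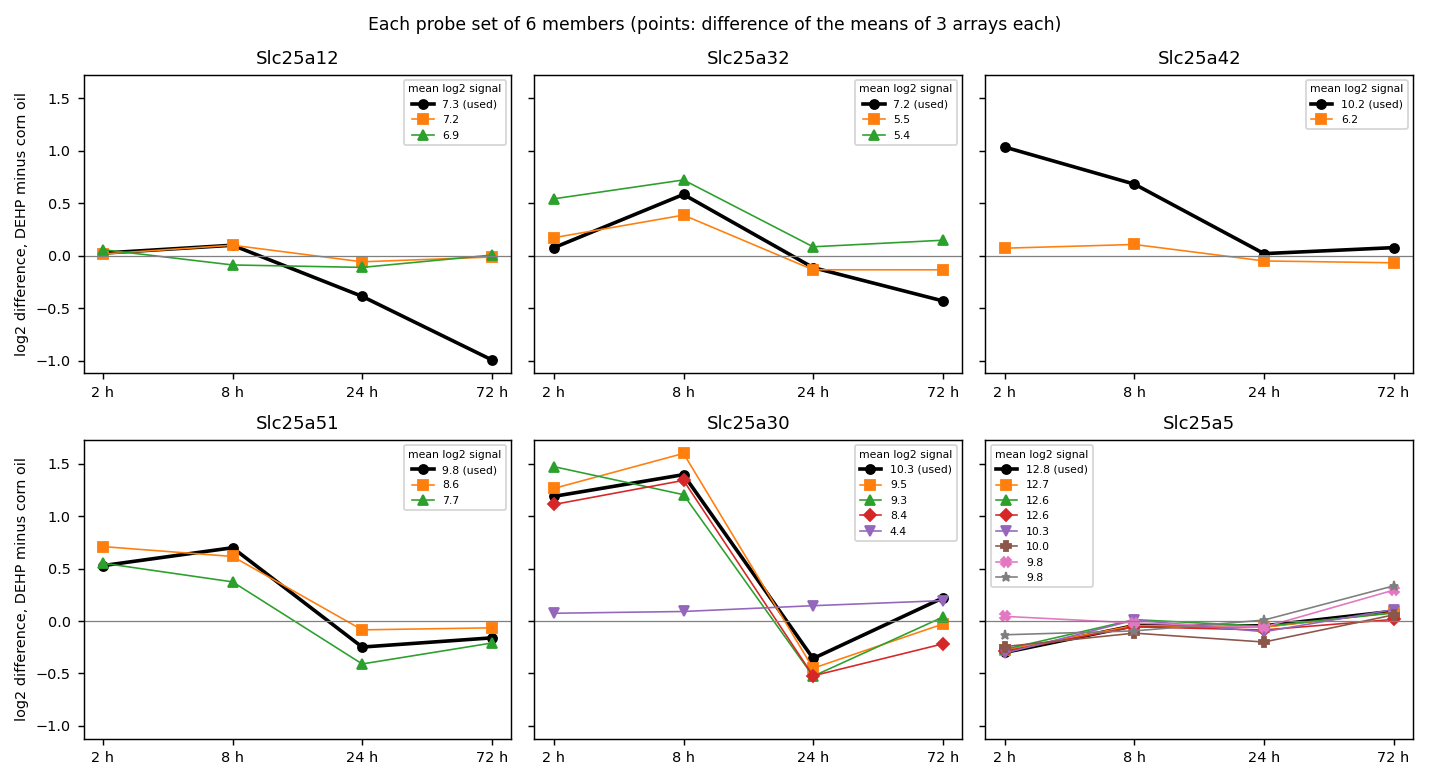
Log2 difference, DEHP minus corn oil, of every probe set of 6 members at each time of sampling, with the probe set used in black and the legend giving each one's mean log2 signal over all arrays. All lines of Slc25a51 lie above 0 at 2 and 8 h and 4 of the 5 of Slc25a30 lie at 1.11 or more, while for Slc25a12 only the black line falls at 72 h and for Slc25a42 the dimmer probe set stays near 0.

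The other 5 dicarboxylate, oxoglutarate and amino acid carriers of that group, Slc25a10, Slc25a11, Slc25a13, Slc25a18 and Slc25a22, were called at no time. Slc25a13 had positive differences throughout, between 0.13 and 0.25, with an average of 0.18 (SE 0.06, adjusted p = 0.0713). Its signals were 11.26, 11.02 and 11.44 with DEHP and 11.17, 11.10 and 10.97 with corn oil at 2 h, and 11.48, 11.31 and 11.49 with DEHP and 11.13, 10.98 and 11.43 with corn oil at 8 h. They were 11.22, 11.34 and 11.30 with DEHP and 11.20, 10.98 and 11.10 with corn oil at 24 h, and 11.40, 11.27 and 11.31 with DEHP and 10.97, 11.38 and 11.24 with corn oil at 72 h. The groups were apart only at 24 h, and narrowly.

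Slc25a10 is the dicarboxylate carrier, which exchanges malate or succinate for phosphate. At 2 h its signals were 10.20, 10.32 and 9.78 with DEHP, all below the 10.37, 10.45 and 10.43 with corn oil, and at 72 h they were 11.22, 11.13 and 11.15 with DEHP, all above the 10.69, 10.88 and 10.77 with corn oil. At 8 h they were 10.91, 10.96 and 10.62 with DEHP and 10.93, 10.67 and 11.01 with corn oil, and at 24 h 10.66, 11.11 and 10.73 with DEHP and 10.50, 10.53 and 10.88 with corn oil. The differences of -0.32 (SE 0.14) at 2 h and 0.39 (SE 0.14) at 72 h were not called (adjusted p = 0.507 and 0.106), and neither was a difference between the times (adjusted p = 0.153). The second probe set, with a mean signal of 9.91, had differences of -0.13 at 2 h, 0.28 at 8 h, 0.28 at 24 h and 0.30 at 72 h. At 8 h the one used had -0.04. Slc25a10 was called at 72 h with quantile normalization of the arrays, with array weights and with the 6 arrays of that time alone.

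Slc25a22 carries glutamate into the matrix. At 8 h its signals were 11.55, 11.51 and 11.47 with DEHP, above the 10.82, 11.19 and 11.35 with corn oil, and at 72 h they were 11.08, 10.90 and 10.93 with DEHP, below the 11.16, 11.44 and 11.48 with corn oil. At 2 h they were 11.44, 11.53 and 11.79 with DEHP and 11.29, 11.53 and 11.17 with corn oil, and at 24 h 10.93, 10.89 and 11.22 with DEHP and 10.98, 10.48 and 11.04 with corn oil. The groups were apart at 8 and 72 h, in opposite directions. The differences of 0.39 (SE 0.15) at 8 h and -0.39 (SE 0.15) at 72 h were not called (adjusted p = 0.16 and 0.131), and the test between times did not pass (adjusted p = 0.126).

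Of the 9 members grouped as amino acid and glutathione carriers (Slc25a39 and Slc25a40 for glutathione), none was called at a single time with the probe set used. Slc25a15, on chromosome 8, is the ornithine carrier of the urea cycle, and it was called lower on the average over the times. Its signals were 12.16, 12.01 and 12.07 with DEHP and 12.14, 12.24 and 12.28 with corn oil at 2 h, and 11.83, 11.99 and 11.79 with DEHP and 12.15, 12.05 and 12.09 with corn oil at 8 h. They were 12.07, 11.97 and 12.09 with DEHP and 12.27, 12.02 and 12.36 with corn oil at 24 h, and 12.08, 12.07 and 12.07 with DEHP and 12.11, 12.27 and 12.35 with corn oil at 72 h. The DEHP arrays lay below all corn oil arrays at 8 and 72 h. Differences at the 4 times lay between -0.23 and -0.14, and their average was -0.18 (SE 0.04, adjusted p = 0.0174). This held without each of the 24 arrays but not with the mean of its 2 probe sets (-0.10, adjusted p = 0.426), of which the second had a difference of 0.51 at 8 h, nor after median centring (-0.15, adjusted p = 0.0554). The medians of the 9 members lay between -0.16 and -0.04 at the 4 times. The probe sets of Slc25a44 differed. The one used, with a mean signal of 9.44, had differences of -0.20 at 2 h, 0.03 at 8 h and -0.007 on average. Another, with a mean signal of 9.32, had -0.64, -0.48 and -0.44, and the dimmest had 0.13, 0.21 and 0.07.

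Slc25a28, on chromosome 19, and Slc25a37, on chromosome 14, are the mitoferrins, which bring iron into the matrix for haem and iron-sulphur clusters. At 8 h Slc25a28 had 8.58, 8.72 and 8.42 with DEHP, below the 8.94, 9.01 and 8.96 with corn oil. Its signals were 8.55, 8.75 and 8.50 with DEHP and 8.58, 8.89 and 8.71 with corn oil at 2 h, 8.71, 8.89 and 8.74 with DEHP and 8.85, 8.73 and 8.87 with corn oil at 24 h, and 8.90, 8.68 and 8.67 with DEHP and 8.68, 9.05 and 8.97 with corn oil at 72 h. The groups overlapped at these 3 times. The difference at 8 h was -0.40 (SE 0.11, adjusted p = 0.0348) and the average was -0.18 (SE 0.05, adjusted p = 0.0489). The call at 8 h was lost without any 1 of the corn oil 8 h arrays or without DEHP 8 h replicate 1 or 3 (adjusted p between 0.0683 and 0.212). The average was called in only 7 of the 24 fits without 1 array, those without replicate 2 of DEHP at 2, 8 or 24 h, replicate 1 of DEHP at 72 h, replicate 1 of corn oil at 2 or 72 h, or replicate 2 of corn oil at 24 h, and had an adjusted p of at most 0.101 in the others. It was lost too with a variance trend, quantile normalization, median centring and the Actb covariate (adjusted p at most 0.0905), and the call at 8 h with median centring (-0.36, adjusted p = 0.0544). Slc25a37 differed the other way at 8 h, by 0.43 (SE 0.18, adjusted p = 0.202), and by -0.48 (SE 0.18, adjusted p = 0.121) at 72 h, neither of them called, and its values were singled out after they were seen.

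The 3 ADP/ATP carriers and the 6 phosphate and ATP-Mg carriers, which supply the substrates of ATP synthase and carry its product, were called in no test of DEHP against corn oil. Their differences lay between -0.30 and 0.16 for the ADP/ATP carriers and between -0.22 and 0.64 for the others. Slc25a5, the adenine nucleotide translocase of proliferating cells, also expressed in liver, had 12.58, 12.53 and 12.76 with DEHP at 2 h, below the 12.96, 12.88 and 12.94 with corn oil. At 8 h it had 12.83, 12.67 and 12.74 with DEHP and 12.80, 12.71 and 12.87 with corn oil. At 24 h it had 12.78, 12.76 and 12.78 with DEHP and 12.80, 12.67 and 12.99 with corn oil, and at 72 h 12.97, 12.89 and 12.82 with DEHP and 12.77, 12.89 and 12.74 with corn oil. The groups were apart at 2 h and overlapped later. The difference at 2 h was -0.30 (SE 0.09, adjusted p = 0.134), and 7 of the 8 probe sets of the gene had a negative difference there, of -0.31 to -0.13, against 0.04 for the last.

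Slc25a3, the phosphate carrier, was among the least variable members. It had 12.70, 12.65 and 12.64 with DEHP and 12.76, 12.76 and 12.71 with corn oil at 2 h, and 12.68, 12.72 and 12.73 with DEHP and 12.64, 12.72 and 12.69 with corn oil at 8 h. It had 12.73, 12.78 and 12.78 with DEHP and 12.72, 12.60 and 12.72 with corn oil at 24 h, and 12.72, 12.63 and 12.72 with DEHP and 12.46, 12.71 and 12.75 with corn oil at 72 h. The DEHP arrays lay just below the corn oil arrays at 2 h and just above them at 24 h. Its differences lay between -0.08 and 0.08, and none was called.

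Slc25a4, the adenine nucleotide translocase of heart and skeletal muscle, varied widely within groups at 8 and 72 h. At 8 h its signals were 7.83, 7.32 and 7.03 with DEHP and 8.14, 6.78 and 7.37 with corn oil, and at 72 h 7.37, 7.01 and 7.86 with DEHP and 8.53, 6.93 and 7.41 with corn oil. At 2 h they were 7.05, 7.09 and 6.78 with DEHP and 7.13, 6.88 and 7.19 with corn oil, and at 24 h 7.15, 7.14 and 7.01 with DEHP and 6.75, 7.18 and 6.88 with corn oil. No difference was called (adjusted p at least 0.759). The summed signal of 7 skeletal muscle markers was 1856, 1026 and 581.6 with DEHP and 3052, 585.3 and 620.7 with corn oil at 8 h, and 921.4, 531.8 and 1928 with DEHP and 3171, 631.6 and 809.4 with corn oil at 72 h. At 2 and 24 h the sum lay between 513.1 and 627.6 on every array. The 4 arrays with the highest Slc25a4 signal were thus the 4 with the highest marker sum, namely replicate 3 of DEHP at 72 h, replicate 1 of DEHP at 8 h and replicate 1 of corn oil at 8 and at 72 h. The part of muscle RNA in the signal was not tested.

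The spread between arrays of a group was largest for Slc25a30, Slc25a25 and Slc25a4, with pooled standard deviations (SD) of 0.66, 0.45 and 0.45, against a median of 0.16 over the 41 members and of 0.13 over all genes. For 30 of the 41 members the SD was larger in corn oil than in DEHP livers, as it was for 61.8% of all genes.

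Slc25a30, on chromosome 14, an uncoupling-protein relative described in kidney, had the largest differences of all members at 2 and 8 h and was not called. It is described here because its values stood out when they were seen. At 2 h its signals were 11.90, 11.49 and 11.45 with DEHP and 10.68, 11.36 and 9.23 with corn oil, and at 8 h they were 12.24, 12.25 and 12.01 with DEHP and 9.48, 11.11 and 11.72 with corn oil. Every DEHP array lay above every corn oil array at both times, and the corn oil arrays spread over more than 2 log2 units. At 24 h they were 9.11, 8.84 and 9.19 with DEHP and 9.54, 9.26 and 9.41 with corn oil, and at 72 h 9.92, 9.45 and 9.89 with DEHP and 8.96, 9.10 and 10.54 with corn oil. At 24 h every DEHP array lay below every corn oil array. Its difference was 1.19 (SE 0.46) at 2 h (adjusted p = 0.406) and 1.40 (SE 0.46) at 8 h (adjusted p = 0.0976). The SD within groups was 0.21 in DEHP and 0.91 in corn oil livers. The 4 brighter of its 5 probe sets had differences of 1.11 to 1.47 at 2 h and of 1.21 to 1.60 at 8 h. It was called at 8 h without corn oil 2 h replicate 3, the lowest array at 2 h, and without corn oil 8 h replicate 3, the highest corn oil array at 8 h.

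Slc25a25, on chromosome 2, is a calcium-regulated ATP-Mg/phosphate carrier, and its corn oil arrays also spread widely. At 2 h it had 10.77, 10.51 and 10.50 with DEHP and 10.61, 11.25 and 9.35 with corn oil, and at 8 h 10.83, 10.35 and 10.68 with DEHP and 10.22, 10.715 and 10.95 with corn oil. In both of these corn oil groups, but not in those at 24 and 72 h, its 3 arrays had the same order as for Slc25a30. The summed signal of 9 exocrine pancreas markers had that order too in the corn oil arrays at 2 h, with 18150, 2539 and 2388 on the DEHP arrays and 4704, 7922 and 2239 on the corn oil arrays. At 8 h it was 2205, 2132 and 2129 with DEHP and 3020, 2464 and 2483 with corn oil, which is another order. At 24 h it was 2532, 2055 and 2101 with DEHP and 2313, 2485 and 2101 with corn oil. At 72 h it was 6588, 1832 and 2312 with DEHP and 8403, 2477 and 2566 with corn oil. The corn oil order was that of neither gene at 24 h, and that of Slc25a25 but not of Slc25a30 at 72 h. The part of pancreas RNA in these signals was not tested. At 24 h Slc25a25 had 10.81, 10.26 and 10.82 with DEHP and 9.47, 10.09 and 10.40 with corn oil, and at 72 h 10.29, 10.31 and 10.63 with DEHP and 10.79, 10.24 and 10.77 with corn oil. The groups overlapped at every time, and no difference was called, the largest being 0.64 (SE 0.32) at 24 h (adjusted p = 0.621).

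**Figure D5:**
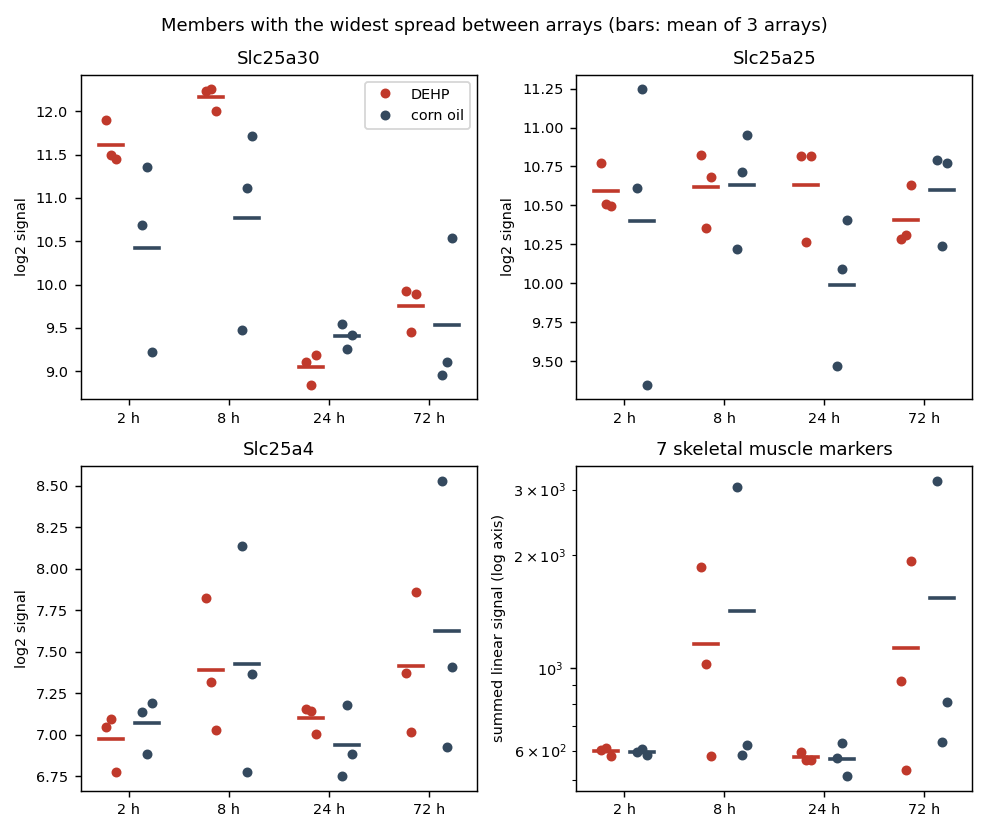
Log2 signal on every array of the 3 members with the widest spread within groups, and the summed linear signal of 7 skeletal muscle markers (log axis), DEHP (red) left of corn oil (dark blue) at each time of sampling, with a bar at the mean of 3 arrays. Corn oil points of Slc25a30 spread from 9.48 to 11.72 at 8 h, next to DEHP points from 12.01 to 12.25, and the high points of Slc25a4 at 8 and 72 h fall on the arrays with a high muscle sum.

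By the F test over all 4 times, 7 members were called as differing between DEHP and corn oil at any time (Slc25a12, Slc25a32, Slc25a33, Slc25a34, Slc25a42, Slc25a47 and Slc25a51), where 6.46% of all genes were called. The calls of Slc25a12, Slc25a34 and Slc25a42 held in all 24 fits without 1 array, that of Slc25a47 in 23 (not without corn oil 2 h replicate 3, adjusted p = 0.0587), that of Slc25a32 in 18, and those of Slc25a33 and Slc25a51 in 10 each. Slc25a32 was lost without replicate 2 or 3 of DEHP at 8 or 72 h or replicate 1 or 2 of corn oil at 8 h (adjusted p at most 0.0707). Slc25a33 was lost without any DEHP array at 2 h, replicate 3 of DEHP at 8 h, replicate 2 or 3 of DEHP at 24 or 72 h, or replicate 1 or 3 of corn oil at 2, 8 or 24 h (adjusted p at most 0.0788). Slc25a51 was lost without replicate 1 or 3 of DEHP at 2 h, replicate 1 or 2 of DEHP at 8 h, replicate 2 of DEHP at 24 h, replicate 2 or 3 of DEHP at 72 h, any corn oil array at 2 h, replicate 1 or 2 of corn oil at 8 h, replicate 1 of corn oil at 24 h or replicate 2 of corn oil at 72 h (adjusted p at most 0.0945). The effect differed between times for 4 members, Slc25a12, Slc25a32, Slc25a42 and Slc25a47, where 2.08% of all genes were called. The call for Slc25a42 held in 15 of the 24 fits and was lost without replicate 1 or 3 of DEHP at 2 h, replicate 2 of DEHP at 24 h, replicate 2 or 3 of DEHP at 72 h, replicate 1 or 3 of corn oil at 2 h, replicate 1 of corn oil at 24 h or replicate 3 of corn oil at 72 h (adjusted p at most 0.069). Between successive times no member was called in the same limma fit, where 0.418% of all genes were called from 2 to 8 h, 0.467% from 8 to 24 h and 0.022% from 24 to 72 h. At an unadjusted p under 0.05 there were 5 members from 2 to 8 h, 11 from 8 to 24 h and 4 from 24 to 72 h, where 10.1%, 9.25% and 7.66% of all genes had such a p. Of the 11, 8 were lower at 24 h than at 8 h in DEHP minus corn oil (Slc25a12, Slc25a30, Slc25a32, Slc25a34, Slc25a37, Slc25a42, Slc25a46 and Slc25a51), where 2.26% of all genes were. These 8 share the same arrays, corn oil 8 h replicate 2 among them. Without it, the differences at 8 h were larger for Slc25a30 and Slc25a34 and smaller for the others. That of Slc25a12 was 0.01 against 0.10, and that of Slc25a46 was 0.21 against 0.28.

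Replicate 2 of corn oil at 8 h, which had the Actb difference of 1.46, bore on the calls at 8 h. Without it 1 of the 5 members called at 8 h was still called, Slc25a34, and the same was found without corn oil 8 h replicate 1 or DEHP 8 h replicate 3. The differences of the other 4 without corn oil 8 h replicate 2 were 0.67 for Slc25a42 (adjusted p = 0.057), 0.59 for Slc25a51 (adjusted p = 0.175), 0.42 for Slc25a32 (adjusted p = 0.157) and -0.38 for Slc25a28 (adjusted p = 0.126). Without that array 2.47% of all genes were called at 8 h. With the Actb difference as a covariate, again only Slc25a34 was called at 8 h. In a fit of the 6 arrays at 8 h alone Slc25a42 and Slc25a51 were called, and Slc25a34 was not (adjusted p = 0.0502). In a fit of the 6 arrays at 2 h alone only Slc25a42 was called, and neither Slc25a34 (adjusted p = 0.183) nor Slc25a47 (adjusted p = 0.0591).

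Close relatives outside the set and genes of connected steps were measured too. Slc25a20, the carnitine-acylcarnitine carrier, was higher by 0.40 (SE 0.07) on average (adjusted p = 0.00135), with differences of 0.31 to 0.48 that were called at no single time. Mtch2, an outer-membrane relative of the carriers, was higher by 0.49 (SE 0.08) at 8 h (adjusted p = 0.000614), with 11.17, 11.34 and 11.21 with DEHP and 10.65, 10.71 and 10.88 with corn oil, which did not overlap. Slc25a1, Slc25a17, Ucp1, Ucp3 and Mtch1 were not called at any time. Ucp2 was not analysed here.

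In these lists the shares over all genes, 0.83% at 2 h, 4.13% at 8 h, 4.18% at 72 h and 6.41% on average, are the background. Of 24 genes for the import of carrier proteins, only Tomm40, the channel of the outer membrane, was called, higher by 0.53 (SE 0.11) at 8 h (adjusted p = 0.00382). Of 22 other transporters of the mitochondrial membranes, Cpt2, which rebuilds acyl-CoA from acylcarnitine in the matrix, was higher by 0.59 (SE 0.13) at 2 h and 0.76 (SE 0.13) at 8 h (adjusted p = 0.0325 and 0.00129), and Abcb10 had a difference of -0.39 (SE 0.08) at 8 h (adjusted p = 0.00347). Of 33 enzymes that use the carried substrates, 2 were higher and 2 lower at 8 h. Pank1, which starts the synthesis of coenzyme A, and Dcakd, named as a dephospho-CoA kinase, were higher by 0.62 each (SE 0.11 and 0.13, adjusted p = 0.00176 and 0.00487). Ass1, of the urea cycle, had a difference of -0.66 (SE 0.16, adjusted p = 0.0152) and Gcsh, of glycine cleavage, one of -0.38 (SE 0.10, adjusted p = 0.0391). At 72 h Ass1 was higher by 0.75 (SE 0.16, adjusted p = 0.00903) and Pck2, which makes phosphoenolpyruvate in mitochondria, had a difference of -0.30 (SE 0.09, adjusted p = 0.0483). On average over the times 5 of the 33 were called, Pank1 and Dcakd higher by 0.29 and 0.40, and Asl and Cps1 of the urea cycle and Glud1, glutamate dehydrogenase, lower, with differences of -0.22, -0.19 and -0.14 (adjusted p between 0.000389 and 0.0387). The average was also called for Cpt2 (0.53) and Mtch2 (0.24). At 2 and 24 h none of the 33 was called by limma, and of the 16 ATP synthase genes none was called at any time.

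Without corn oil 8 h replicate 2, every named gene outside the 41 kept its call at 8 h except Gcsh (-0.32, adjusted p = 0.183), and the differences of Slc25a22 and Slc25a37 were 0.43 and 0.38, uncalled as before. The calls of Slc25a20, Mtch2, Tomm40, Abcb10, Pank1, Dcakd and Cps1, and those of Cpt2 at 8 h and on average, held in all 24 fits without 1 array. Cpt2 at 2 h was lost without replicate 1 or 3 of DEHP or any corn oil array of that time (adjusted p at most 0.2). Ass1 was lost at 8 h without replicate 2 or 3 of DEHP or replicate 3 of corn oil, and at 72 h without replicate 2 or 3 of corn oil (adjusted p at most 0.075). Gcsh was lost without any DEHP array or replicate 3 of corn oil at 8 h too (adjusted p at most 0.195). Asl was lost without replicate 1 of DEHP at 2 h, replicate 3 of DEHP at 24 h, replicate 3 of corn oil at 2, 8 or 24 h or replicate 2 of corn oil at 72 h (adjusted p at most 0.0569). Pck2 kept its call only without replicate 1 or 2 of DEHP at 2 h, replicate 2 of DEHP at 8 h, replicate 3 of corn oil at 8 h or replicate 2 or 3 of corn oil at 24 h (adjusted p at most 0.161 otherwise). Glud1 kept its call only without replicate 2 of DEHP at 2 h, replicate 1 of DEHP at 24 h, replicate 1 of corn oil at 2, 24 or 72 h, replicate 3 of corn oil at 2 h or replicate 2 of corn oil at 8 h (adjusted p at most 0.0757 otherwise). Hnf4a was lost without replicate 2 or 3 of DEHP or replicate 2 of corn oil at 72 h (adjusted p at most 0.116).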

How the data were processed

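Processed expression values of 24 arrays with 45101 probe sets were analysed. The deposited values are log2 signals between 2.84 and 14.55 that the authors computed with RMA, per the submitters' processing notes, and the RMA version is not given in the sources used here. No detection calls were used, so signal over background was judged only from a gene's rank. RMA fits probes across arrays and equalises their distributions, so a shift shared by most genes would be reduced.

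Groups were taken from the sample labels. Probe sets were joined to symbols through the platform annotation supplied with the series: 34958 had 1 symbol, 932 several and 9211 no annotation, and only the first were used. All 41 members matched RefSeq genes of the same symbol by gene ID.

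R 4.3.3 and limma 3.58.1 were used to fit the 8 group means over 24 arrays (16 residual and 6.21 prior degrees of freedom), with empirical Bayes variances, contrasts at each time, their average and moderated F tests. P-values were adjusted over 18194 genes. The fit was run on simulated arrays with known changes at 8 h. Their noise was independent between genes and arrays, with the same SD in all groups. The data differ in this, since the spread was not the same in both arms, so the simulation gives no error rate for them. Arrays have no sequencing depth, and their number limits the precision. Deviations of same-numbered DEHP and corn oil arrays correlated with r over 0.1 in 1 of 12 pairs (-0.35 to 0.14), so the numbers were not used as pairs.

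Members, role groups, pathway and marker lists were chosen with earlier results of these data known. Values on every array are given for each called member and for 11 members picked by role, 4 of them also called, and for Slc25a30, which was added after its values were seen. Up to 4 called genes per pathway list are named. Alternatives were the replicate number and the first against later replicates as blocks, a filter at the 40th percentile of signal, the mean of all probe sets, a variance trend, array weights, quantile normalization, median centring, leaving out both arrays numbered 14 in the titles, every array once, and a fit for each time on its own 6 arrays. Added after seeing the data were the Actb difference as a covariate and leaving out corn oil 8 h replicate 2 with corn oil 72 h replicate 1. Results across settings are in the closing section.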

Additional observations from a re-analysis of the deposited data

Results flagged for a closer look

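The effect of DEHP differed between 2, 8, 24 and 72 h for 4 members by the moderated F test of limma, which tests the difference between the times itself. The adjusted p was 0.0133 for Slc25a12, 0.02826 for Slc25a47, 0.02885 for Slc25a42 and 0.03451 for Slc25a32. Slc25a12 was lower in DEHP livers at 72 h, while Slc25a47 was higher at 2 h, Slc25a42 at 2 and 8 h and Slc25a32 at 8 h. With the mean of all probe sets the difference between times was called for neither Slc25a12 (adjusted p = 0.142) nor Slc25a32 (adjusted p = 0.182), and with the Actb covariate it was called for neither Slc25a42 (adjusted p = 0.0579) nor Slc25a32 (adjusted p = 0.189). Slc25a32 also lost the call without the 2 corn oil arrays that stood apart, replicate 2 at 8 h and replicate 1 at 72 h (adjusted p = 0.123).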

How the results depend on the processing

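The 16 called values of single members were refitted under every alternative that could be computed. In these refits 483 calls were kept, 85 were lost and 0 changed sign, and 4 values were called in every refit. For a call at a single time, most fits without 1 array left out an array of another time. Such fits cannot change the difference or its sign, only the variance estimate and the adjusted p. They therefore raise the count of calls kept. Slc25a34 at 2 h kept its call in 19 of 24 such fits, and every loss was without an array of that time. With the replicate number as a fixed block the counts of members called were 3, 5, 0 and 1 at 2, 8, 24 and 72 h, 7 on average, 7 at any time, 4 between times and 2 in corn oil, so this replicate block changed no count. With the 6 arrays of a time alone, 1 member was called at 2 h, 2 at 8 h and 4 at 72 h. With the Actb covariate 1 was called at 8 h, 4 at any time, 2 between times and 0 in corn oil. Without the 2 arrays that stood apart, 1 was called at 8 h and 1 in corn oil. At 72 h array weights gave 8 members, quantile normalization 2 and leaving out both arrays numbered 14 also 2. The mean of all probe sets gave 4 on average and 2 between times, and array weights 12 at any time. Leaving out 1 array gave 1 to 3 members at 2 h, 1 to 6 at 8 h, 0 at 24 h, 1 to 2 at 72 h, 4 to 9 on average, 4 to 9 at any time, 1 to 5 between times and 1 to 3 in corn oil. The cause of these changes was not tested, other than that fewer arrays enter where some are left out or a time is fitted alone. With 3 arrays per group, dim members such as Slc25a36 and single probe sets such as that of Slc25a12 limit what these values can show.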
